A study of Mus musculus with 4 samples.

Results

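Vascular genes, 30 in all, were followed through bulk RNA-seq counts of CD11b+ microglia, the myeloid cells of the brain that were isolated on magnetic beads. The members were chosen by name as genes known from blood vessel cells, and the row with that symbol was taken from each count table. All 30 were found among the 49993 genes with a count: 20 endothelial genes, 7 pericyte genes and 3 smooth muscle genes. The mice were 10 months old, and every one carried APP/PS1, a transgene pair that makes amyloid accumulate in the brain. The 2 AD libraries came from APP/PS1+ asrij+/+ mice and the 2 AD/KO libraries from APP/PS1+ asrij-/- mice, in which asrij (gene symbol Ociad1) was deleted constitutively, so in every cell and not in microglia alone. All groups had the transgenes, and mice without them were not analysed here. The sources used here give neither the promoter that drives the transgenes nor whether a library held 1 animal or a pool, so that p-values measure the spread between these libraries, which may be technical.

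Brain capillaries are tubes of endothelial cells that are sealed to one another by tight and adherens junctions, and that move nutrients and expel foreign compounds through membrane transporters: together these make the blood-brain barrier. Pericytes sit on the outside of the capillaries, held there by PDGF-B signalling to the receptor Pdgfrb, and smooth muscle cells wrap arterioles and contract. CD11b, on which the cells were isolated, is a marker of myeloid cells and not of these vessel cells.

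The libraries held from 13102622 to 19810076 counts. Levels are given as CPM, the read count relative to the scaled size of its library, with replicate 1 before replicate 2 within each group. At this depth 10 reads corresponded to 0.521 to 0.726 CPM. The summed level of 12 microglial markers was 19403 and 13239.9 CPM in AD and 19793 and 5723 CPM in AD/KO, so the labelled cell type was present in every library and lowest in AD/KO replicate 2. Ociad1, the targeted gene, was at 56.8 ± 9.39 CPM in AD and 35.5 ± 4.78 CPM in AD/KO (SD, n = 2 each), a log2 fold change of −0.68 (SE 0.29, adjusted p = 0.6796). Each AD/KO library had fewer CPM of it than either AD library, though the estimate was 0.038 when libraries were scaled to the microglial markers. It was not lost, and which exons the allele lacks is not given in the sources used here. AD and AD/KO therefore stand for the libraries labelled so, and each direction is a difference between labels. AD replicate 2 stood apart in Xist, the transcript of the inactive X chromosome, with 1391 reads against 3 to 15 in the other 3 libraries, and in 8 neutrophil markers, with 3401 CPM against 246 to 378 CPM.

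No vascular gene passed the test between the labels, and the libraries of 1 label were often several-fold apart. Of the 30 members, 29 passed the filter on low counts, and edgeR's quasi-likelihood test called 0 of these at the threshold of 0.05 on the adjusted p. The share called among all 21439 genes was 0.0%, and DESeq2 called 90 genes. Before adjustment 0 members had a p under 0.05, against 5.0% of all genes, and DESeq2 called 0 of the 27 members to which it gave an adjusted p. Both AD/KO libraries lay above both AD libraries in 0 of the 29 members, against 20.3% of all genes, and below them in 2 members, against 21.7%. The latter were Kdr and Acta2, whose estimates turned to 0.42 and 0.28 with scaling to the microglial markers, a setting that moved the median of all genes upwards by 0.78. In bulk samples, fewer cells of a type and less RNA per cell cannot be told apart.

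Most estimates were above 0, and none was separated from it. Among the 20 endothelial members, 15 were higher and 5 lower, and the median log2 fold change was 0.57. The 7 pericyte members had a median of 0.82, with 6 higher and 1 lower, and the 2 smooth muscle members tested had −0.56 and 0.67. Over all genes the median was −0.048. The direction rested on AD/KO replicate 2: without that library the endothelial median was −0.34 and the mural median (pericyte and smooth muscle genes together) −0.24, against 0.57 and 0.68 with all 4 libraries. Without AD replicate 2 they were 1.39 and 1.32, without AD replicate 1 0.025 and 0.24, and without AD/KO replicate 1 1.25 and 1.28.

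**Figure D1:**
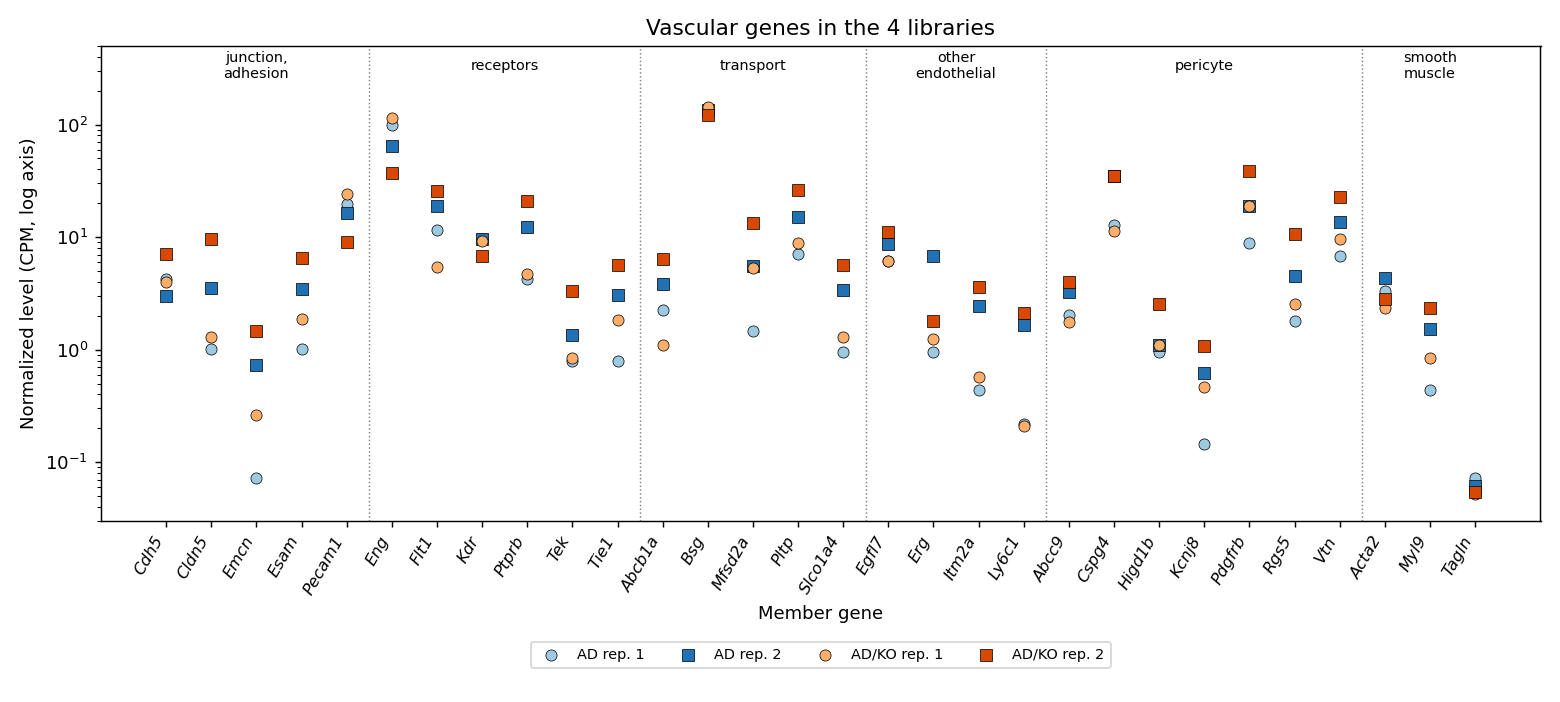
Level of each of the 30 members (CPM, log axis) in each library, with AD in blue, AD/KO in orange, circles for replicate 1 and squares for replicate 2. Both squares lie above both circles in 23 members and below them in Eng and Pecam1, whereas both orange points lie above both blue points in 0 members.

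Of the junction and adhesion genes, Cldn5 (chromosome 16, 18776847 to 18778262, GRCm38.p6), the main claudin of the endothelial tight junction, stood at 1.02 and 3.504 CPM in the AD libraries and 1.303 and 9.61 CPM in the AD/KO libraries. Esam, an adhesion molecule of endothelial junctions, was at 1.02 and 3.44 CPM in AD and 1.88 and 6.57 CPM in AD/KO. Emcn, a sialomucin of capillary and venous endothelium, had 1 and 12 reads in AD and 5 and 27 reads in AD/KO. In each of these 3 genes AD/KO replicate 2 was highest and AD replicate 2 next, so the replicate 2 libraries of both groups lay above both replicate 1 libraries. The log2 fold change between labels was 1.26 (SE 1.13, adjusted p = 0.708) for Cldn5. Its mean level was 2.41-fold higher in AD/KO, less than the 7.37-fold gap between the AD/KO libraries themselves. Estimates for Esam and Emcn were 0.91 (SE 0.92, adjusted p = 0.728) and 1.04 (SE 1.299, adjusted p = 0.769). Without AD/KO replicate 2 all 3 turned negative, at −0.79 for Cldn5, −0.24 for Esam and −0.64 for Emcn. Cdh5, the cadherin of endothelial adherens junctions, had its highest level in AD/KO replicate 2 but its lowest in AD replicate 2, with 4.21 and 3.01 CPM in AD and 4.01 and 7.11 CPM in AD/KO. Pecam1, an adhesion molecule of endothelium that leukocytes and platelets also carry, was at 19.7 and 16.4 CPM in AD and 24.2 and 9.12 CPM in AD/KO. It ran the other way from Cldn5, with AD/KO replicate 2 lowest and AD replicate 2 next. The estimate for Pecam1 was −0.12 (SE 0.54, adjusted p = 0.934) and that for Cdh5 0.62 (SE 0.54, adjusted p = 0.703).

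Among the receptors, Flt1 and Kdr both bind VEGF, with Kdr as the main signalling receptor and Flt1 partly as a decoy. Flt1 stood at 11.5 and 18.99 CPM in AD and 5.37 and 25.9 CPM in AD/KO, and Kdr at 9.58 and 9.59 CPM in AD and 9.18 and 6.73 CPM in AD/KO. AD/KO replicate 1 had the lowest Flt1 of the 4 libraries and AD/KO replicate 2 the highest, a gap of 4.82-fold inside 1 group, and the estimate between labels was 0.033 (SE 0.79, adjusted p = 0.988). For Kdr the AD libraries were nearly equal and both AD/KO libraries lay below them, by little in replicate 1, with an estimate of −0.27 (SE 0.39, adjusted p = 0.793). Tek, the angiopoietin receptor Tie2, had 11 and 22 reads in AD and 16 and 61 reads in AD/KO. Tie1, its partner receptor, was at 0.798 and 3.07 CPM in AD and 1.82 and 5.64 CPM in AD/KO, and Ptprb, the phosphatase VE-PTP that restrains Tek, at 4.21 and 12.4 CPM in AD and 4.69 and 20.9 CPM in AD/KO. All 3 had AD/KO replicate 2 highest and AD replicate 1 lowest. Their estimates were 0.94 (SE 0.87, adjusted p = 0.715) for Tek, 0.94 (SE 0.93, adjusted p = 0.723) for Tie1 and 0.63 (SE 0.89, adjusted p = 0.7902) for Ptprb. Eng, the TGF-beta co-receptor endoglin, which activated macrophages also make, was at 99.1 and 64.05 CPM in AD and 113 and 37.2 CPM in AD/KO. Both replicate 2 libraries had less Eng than either replicate 1 library, and the estimate was −0.12 (SE 0.60, adjusted p = 0.9403).

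The endothelial member with the highest estimate was a transport gene of the barrier. Mfsd2a (chromosome 4, 122946850 to 122961194), the lipid transporter that holds down transcytosis in brain endothelium, stood at 1.45 and 5.59 CPM in the AD libraries and 5.27 and 13.3 CPM in the AD/KO libraries. AD replicate 2 and AD/KO replicate 1 were nearly equal, and the estimate was 1.39 (SE 0.84, adjusted p = 0.6796). It stayed above 0 with any 1 library left out, at 0.58 to 2.73, without passing the threshold in any of those 4 fits. Slco1a4, an organic anion transporter, was at 0.944 and 3.38 CPM in AD and 1.303 and 5.64 CPM in AD/KO (estimate 0.67), and Abcb1a, the drug efflux pump P-glycoprotein, at 2.25 and 3.81 CPM in AD and 1.09 and 6.35 CPM in AD/KO. In Abcb1a the AD/KO libraries held both the lowest and the highest value, 5.799-fold apart, with an estimate of 0.29 (SE 0.93, adjusted p = 0.905). Pltp, a phospholipid transfer protein, was at 7.11 and 15.1 CPM in AD and 8.86 and 26.3 CPM in AD/KO, an estimate of 0.66 (SE 0.68, adjusted p = 0.7302). Bsg (basigin, CD147), a chaperone of lactate transporters made by many cell types, was at 131 and 136 CPM in AD and 143 and 121 CPM in AD/KO. It had the smallest SE of the members, with an estimate of −0.011 (SE 0.29, adjusted p = 0.989) and −0.085 to 0.12 with 1 library left out.

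Of the 4 remaining endothelial members, Erg (chromosome 16, 95359169 to 95586600), an ETS transcription factor that maintains endothelial identity, had 13 and 111 reads in AD and 24 and 33 reads in AD/KO. AD replicate 2 alone was high, 7.23-fold above AD replicate 1, and the estimate of −1.35 (SE 1.01, adjusted p = 0.683) turned to 0.75 without it. That library also had the most neutrophil and monocyte marker RNA, and whether this bears on Erg was not tested. Egfl7, a secreted angiogenic factor whose intron encodes miR-126, was at 6.17 and 8.67 CPM in AD and 6.100 and 11.2 CPM in AD/KO, an estimate of 0.22 (SE 0.49, adjusted p = 0.864). Itm2a, a membrane protein enriched in brain endothelium, had 6 and 40 reads in AD and 11 and 67 reads in AD/KO. Ly6c1, an endothelial and leukocyte surface antigen, had 3 and 27 reads in AD and 4 and 39 reads in AD/KO. Itm2a and Ly6c1 held a steep step between replicate numbers in both groups, 5.65-fold and 6.34-fold for Itm2a and 7.62-fold and 10.1-fold for Ly6c1 in AD and AD/KO. Their estimates between labels were 0.53 (SE 1.20, adjusted p = 0.867) for Itm2a and 0.29 (SE 1.37, adjusted p = 0.936) for Ly6c1. The Ly6c1 transcript matches Ly6c2, the monocyte form, at 97.6% identity over 822 bases, so their reads may be split between them. Ly6c2 had 72 and 455 reads in AD and 76 and 49 reads in AD/KO, high in AD replicate 2 alone, which is another order of libraries than that of Ly6c1. Its estimate was −2.32 (SE 0.88, adjusted p = 0.6796), and −3.08 without AD replicate 1, where it was called (edgeR adjusted p = 0.0465).

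The ETS family, to which Erg belongs, binds a GGAA core and is known for its role at endothelial promoters. The 250 bases before the RefSeq start site (GRCm38.p6, the same assembly as mm10) were therefore searched for AGGAAG and CGGAAG on both strands. The table held 22 of the 30 members. Of 15 endothelial members, 10 had a match in at least 1 window (11 of 20 windows), against 39.2% of the windows of all genes. The sequences of 3 genes follow because they were higher in the replicate 2 libraries of both groups, and that of Eng because it was lower in them, each 5′ to 3′ on the strand of the gene with the matches in capitals. Tie1 lies at chr4:118489850-118490099 (minus strand), Itm2a at chrX:107403361-107403610 (minus strand), Egfl7 at chr2:26580833-26581082 (plus strand) and Eng at chr2:32646345-32646594 (plus strand).
Tie1: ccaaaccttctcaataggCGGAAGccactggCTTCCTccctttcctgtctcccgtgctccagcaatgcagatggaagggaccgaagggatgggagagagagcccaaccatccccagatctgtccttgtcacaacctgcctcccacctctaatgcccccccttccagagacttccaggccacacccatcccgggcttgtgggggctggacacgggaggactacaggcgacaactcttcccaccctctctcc
Itm2a: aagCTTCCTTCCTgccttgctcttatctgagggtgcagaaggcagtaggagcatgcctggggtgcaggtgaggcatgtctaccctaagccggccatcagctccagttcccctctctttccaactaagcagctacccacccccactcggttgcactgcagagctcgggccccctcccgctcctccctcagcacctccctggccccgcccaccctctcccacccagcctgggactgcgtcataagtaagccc
Egfl7: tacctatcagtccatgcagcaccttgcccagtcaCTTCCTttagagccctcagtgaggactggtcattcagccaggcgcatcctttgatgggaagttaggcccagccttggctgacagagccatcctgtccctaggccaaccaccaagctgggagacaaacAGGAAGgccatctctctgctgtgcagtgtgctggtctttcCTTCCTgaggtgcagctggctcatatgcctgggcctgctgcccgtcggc
Eng: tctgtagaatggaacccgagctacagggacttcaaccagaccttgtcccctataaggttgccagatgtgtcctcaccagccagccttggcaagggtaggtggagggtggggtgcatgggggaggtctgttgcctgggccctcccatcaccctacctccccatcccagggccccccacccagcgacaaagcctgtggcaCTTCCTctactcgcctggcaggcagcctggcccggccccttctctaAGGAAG
Genes with opposite orders of libraries both held matches, 2 each in Tie1, Itm2a (where they overlap) and Eng, and 3 in the Egfl7 window shown. The other Egfl7 windows held 1 and 0. Cldn5, with the widest gap between the AD/KO libraries among the junction genes, held none in its window. Tek, Mfsd2a and Pltp, also higher in the replicate 2 libraries of both groups, held none either. A match describes these letters and not a bound site.

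All 7 pericyte genes were higher in both replicate 2 libraries than in either replicate 1 library, though in Pdgfrb and Higd1b by very little. Pdgfrb, the receptor that recruits pericytes, stood at 8.93 and 18.9 CPM in the AD libraries and 18.7 and 39.1 CPM in the AD/KO libraries. AD replicate 2 and AD/KO replicate 1 were level, and within each group replicate 2 was higher by a like factor, 2.11-fold in AD and 2.09-fold in AD/KO. Its estimate of 1.05 (SE 0.56, adjusted p = 0.6796) had the smallest unadjusted p of the members, 0.121, and ran from 0.44 to 1.75 with 1 library left out. Rgs5, a regulator of G protein signalling and a classic pericyte marker, was at 1.81 and 4.55 CPM in AD and 2.55 and 10.6 CPM in AD/KO, an estimate of 1.05 (SE 0.88, adjusted p = 0.6999). Vtn (vitronectin), a matrix protein that brain pericytes secrete, was at 6.75 and 13.5 CPM in AD and 9.64 and 22.8 CPM in AD/KO, an estimate of 0.68 (SE 0.60, adjusted p = 0.705). Rgs5 and Vtn shared an order of libraries, AD/KO replicate 2, AD replicate 2, AD/KO replicate 1 and AD replicate 1, from high to low.

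Kcnj8 and Abcc9 encode the pore and the sulfonylurea subunit of the ATP-sensitive potassium channel of pericytes. Kcnj8 had 2 and 10 reads in AD and 9 and 20 reads in AD/KO, and its estimate was 0.99 (SE 0.96, adjusted p = 0.7197). Abcc9 stood at 2.03 and 3.26 CPM in AD and 1.77 and 3.96 CPM in AD/KO, an estimate of 0.11 (SE 0.66, adjusted p = 0.948). The 2 subunits shared the replicate order but differed in AD/KO replicate 1, which was above AD replicate 1 for Kcnj8 and below it for Abcc9. Higd1b, a small pericyte-enriched protein, had 13 and 18 reads in AD and 21 and 47 reads in AD/KO, an estimate of 0.82 (SE 0.70, adjusted p = 0.701). Its AD replicate 2 and AD/KO replicate 1 stood at 1.106 and 1.095 CPM, where 1 read was 0.0615 and 0.0521 CPM. The replicate order of Higd1b is thus within counting error. Cspg4 (NG2), a proteoglycan of pericytes that oligodendrocyte precursors also carry, was at 12.8 and 34.9 CPM in AD and 11.3 and 35.1 CPM in AD/KO. The replicate 2 libraries of the 2 groups were nearly equal for Cspg4, and so were the replicate 1 libraries, which left an estimate of −0.044 (SE 0.73, adjusted p = 0.982).

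Smooth muscle genes had few reads. Tagln (transgelin), an actin-binding protein that marks contractile cells, had 1 read in each of the 4 libraries and was not tested. Acta2, smooth muscle actin, had 46 and 70 reads in AD and 45 and 52 reads in AD/KO. At 3.82 ± 0.682 CPM in AD and 2.58 ± 0.336 CPM in AD/KO (SD, n = 2 each) it was slightly lower in both AD/KO libraries, with an estimate of −0.56 (SE 0.51, adjusted p = 0.709). Acta2 was higher in replicate 2 within each group, by 1.29-fold in AD and 1.20-fold in AD/KO. Its AD replicate 1 (3.34 CPM) lay above AD/KO replicate 2 (2.82 CPM), so it did not have the replicate order of the pericyte genes. Myl9, the regulatory myosin light chain, had 6 and 25 reads in AD and 16 and 43 reads in AD/KO, an estimate of 0.67 (SE 0.92, adjusted p = 0.786), and did have that order. A CArG box, the site of serum response factor in smooth muscle promoters, was found as CCTAATAAGG 161 bases before the start site of Myl9. It was the only match counted in the members' windows. The Acta2 window holds ccctatatgg and ccttgtttgg, near forms with a C or G among the middle bases, which the search did not count. Tagln had no window to search. The share of all windows with a counted CArG box was 1.47%.

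**Figure D2:**
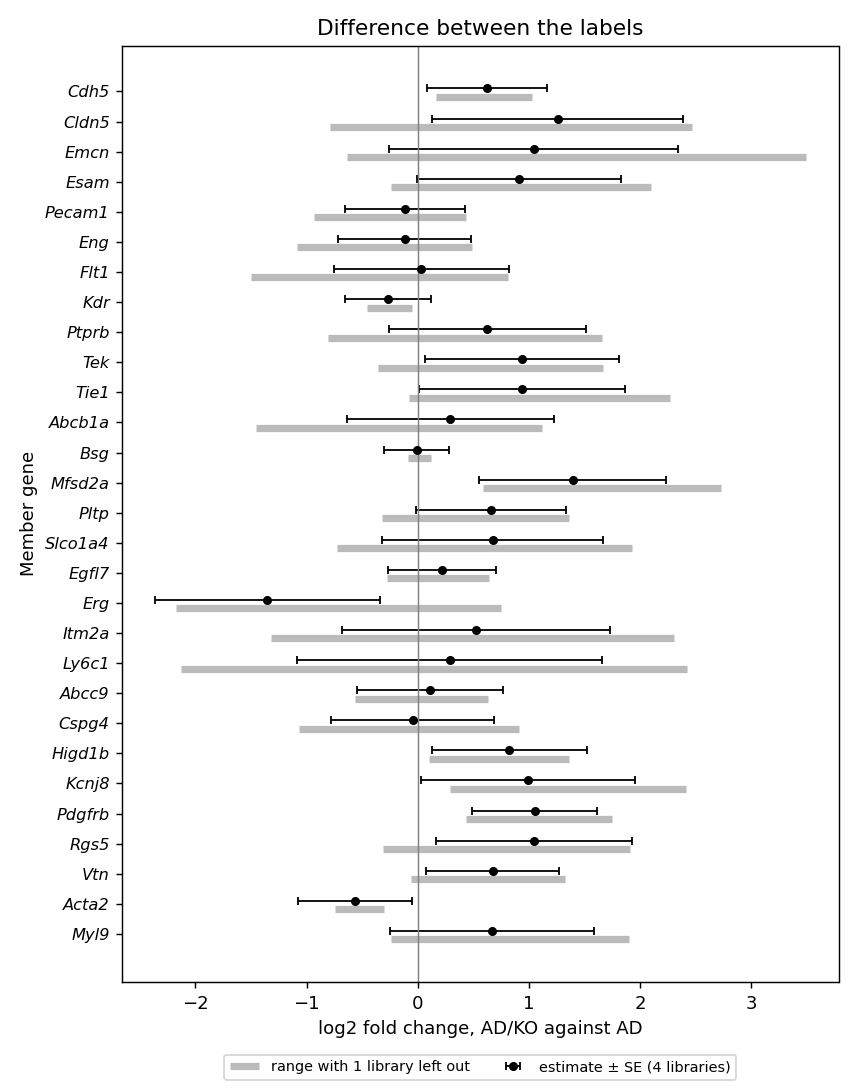
Log2 fold change of AD/KO against AD for the 29 members tested (points, with SE from edgeR as bars) and the range of the estimate when 1 library is left out (grey). For most members the grey range crosses 0. For Mfsd2a, Cdh5, Pdgfrb, Kcnj8 and Higd1b it stays above 0, and for Kdr and Acta2 below 0.

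Levels can be compared between genes only per length, and were divided by the merged exon length (GENCODE M21) as the mean CPM per kb over the 4 libraries. Bsg stood first at 73.2 CPM per kb and Eng second at 19.4. Vtn at 6.49, Pltp at 5.597 and Pdgfrb at 3.91 followed, and Mfsd2a at 2.85, Pecam1 at 2.79 and Cldn5 at 2.72 were close to one another. Acta2 was at 1.46, Rgs5 at 1.08, Emcn at 0.117 and Tagln at 0.0302 CPM per kb. The 2 highest are thus genes that other cells are known to make too, and every pericyte gene stood below both. Libraries differed by more than the gaps between Mfsd2a, Pecam1 and Cldn5, so no order is given among these 3.

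The plainest pattern among the vascular genes was the order of the 4 libraries, which in most of them followed the replicate number. In 23 of the 29 members both replicate 2 libraries lay above both replicate 1 libraries, against 23.3% of all genes tested. These were 15 of 20 endothelial, 7 of 7 pericyte (Higd1b within counting error) and 1 of 2 smooth muscle members. Only Pecam1 and Eng had both replicate 2 libraries below both replicate 1 libraries, against 25.4% of all genes. The replicate order also held in 8 of 10 neuronal, 6 of 8 neutrophil, 5 of 7 red cell and platelet and 6 of 8 perivascular fibroblast markers. It held in fewer astrocyte (1 of 8), oligodendrocyte lineage (4 of 10) and monocyte (2 of 6) markers. In 10 of 12 microglial markers both replicate 2 libraries lay below both replicate 1 libraries. AD/KO replicate 2 was the highest library in 23 members, against 38.5% of all genes. The median log2 difference of replicate 2 from replicate 1 was 1.31 in AD and 1.70 in AD/KO for the endothelial members, and 1.08 and 1.20 for the pericyte members. Over all genes tested it was 0.023 and −0.021. The AD/KO libraries differed by more than 2-fold in 23 of the 29 members and the AD libraries in 17. The labels do not say what a replicate number stands for.

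**Figure D3:**
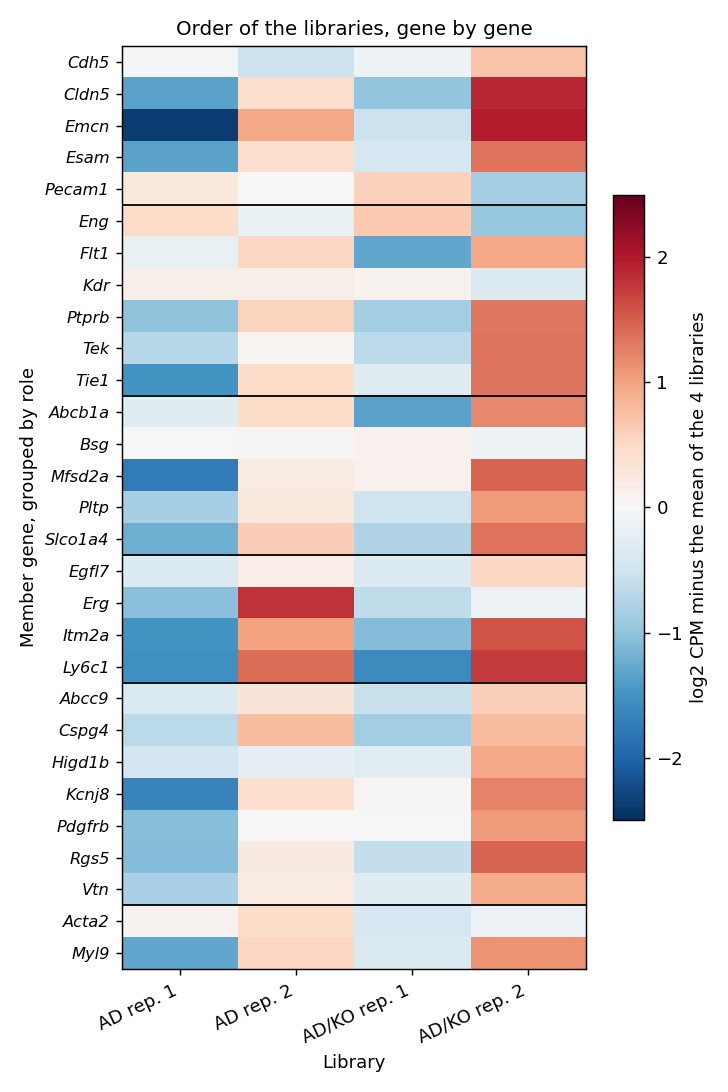
Log2 CPM of each tested member in each library, after subtraction of the gene's mean over the 4 libraries (red above, blue below), with lines between the role groups. The columns of AD and AD/KO replicate 2 are mostly red and those of replicate 1 mostly blue, and Pecam1 and Eng run the other way.

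RNA of other brain and blood cells also differed between libraries, not always in the order of the vascular genes, as the plot of list levels shows. Summed over the 20 endothelial members, the level was nearly flat, at 303 and 319.6 CPM in AD and 335 and 325 CPM in AD/KO, a sum in which Bsg and Eng have the highest levels. The median level of the 20 was 1.85 and 4.702 CPM in AD and 2.95 and 6.92 CPM in AD/KO, and that of the pericyte members 2.03 and 4.55 CPM in AD and 2.55 and 10.6 CPM in AD/KO. All 10 neuronal markers were higher in the AD/KO group's estimate, with a summed level of 352 and 1202 CPM in AD and 886 and 2796 CPM in AD/KO. The 8 astrocyte markers summed to 1866 and 4384 CPM in AD and 4555 and 11657 CPM in AD/KO. Of AD replicate 2 and AD/KO replicate 1, the former was higher in 25 of 29 vascular members, against 49.8% of all genes and 1 of 8 astrocyte markers. AD replicate 2 was also the higher in 8 of 10 neuronal, 8 of 8 neutrophil and 6 of 7 red cell and platelet markers. The same held in 7 of 8 perivascular fibroblast, 6 of 10 oligodendrocyte lineage and 2 of 12 microglial markers. The order was thus not particular to the vascular genes. Markers of red cells and platelets, 7 in number, summed to 749 and 1514 CPM in AD and 407 and 1776 CPM in AD/KO, while the median of these markers was 5.01 and 4.98 CPM in AD and 7.51 and 5.21 CPM in AD/KO. The oligodendrocyte lineage list of 10 genes summed to 1691 and 2736 CPM in AD and 4001 and 8708 CPM in AD/KO. Every gene of these lists had more than 3 reads in total over the 4 libraries. The part that a differing share of other cells played in the vascular values was not tested.

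**Figure D4:**
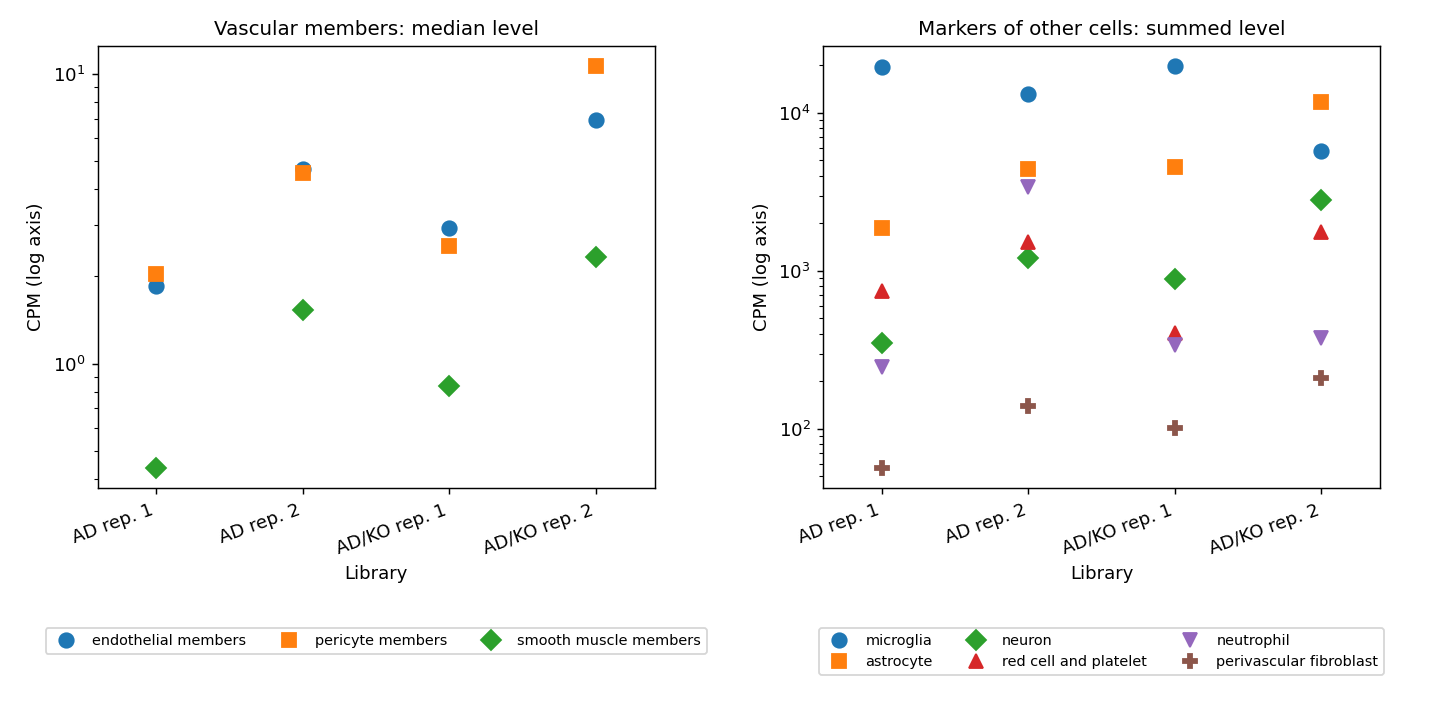
Median level of the endothelial, pericyte and smooth muscle members (left) and summed level of markers of other cells (right) in each library, both in CPM on log axes. The vascular medians are highest in AD/KO replicate 2 and second in AD replicate 2, whereas microglial markers are lowest in AD/KO replicate 2. The smooth muscle median is the level of Myl9 in every library. Acta2 and the smooth muscle sum (5.90 CPM, not drawn) were highest in AD replicate 2. The sum of the endothelial members (not drawn) was nearly flat, from 303 to 335 CPM.

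Further vascular genes behaved in a less uniform way than the members. Of 42 other endothelial genes, 37 were tested, with 24 higher and 13 lower in AD/KO, a median log2 fold change of 0.21, and 0 past the threshold. Before adjustment 2 of the 37 had an edgeR p under 0.05, against 5.0% of all genes, and DESeq2 called 0. The 2 were Fn1 and Klf2, the latter singled out after its values were seen. Tjp1, the junction scaffold ZO-1, was at 372 and 275 CPM in AD and 371 and 262 CPM in AD/KO, and Spock2, a matrix proteoglycan, at 53.6 and 166 CPM in AD and 142 and 462 CPM in AD/KO. Cd34, a sialomucin of endothelium and progenitors, was lower in both AD/KO libraries, at 141 and 105 CPM in AD and 83.7 and 26.5 CPM in AD/KO, an estimate of −1.16 (SE 0.60, adjusted p = 0.6796). So was Fn1 (fibronectin), at 103 and 151 CPM in AD and 31.5 and 53.9 CPM in AD/KO, with an estimate of −1.57 (SE 0.41, adjusted p = 0.6796). Hey1, a Notch target of arterial endothelium, was at 2.47 and 9.34 CPM in AD and 8.55 and 27.2 CPM in AD/KO. These genes thus went in both directions, and the replicate order held in 21 of the 37, against 23.3% of all genes.

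Of 25 other mural genes, 21 were tested, with 15 higher and 6 lower and a median of 0.39. Past the threshold were 0, also at an unadjusted p under 0.05, with 0 by DESeq2. The replicate order held in 13 of the 21, against 23.3% of all genes, and the reverse order in 1, against 25.4%. Notch3, the Notch receptor of mural cells, was higher in both AD/KO libraries, at 6.605 and 21.9 CPM in AD and 24.6 and 57.4 CPM in AD/KO, with an estimate of 1.52 (SE 0.73, adjusted p = 0.6796). Without AD replicate 2 edgeR called Notch3 (2.69, adjusted p = 0.0445), in a fit that called 524 of all genes. Zic1, a transcription factor of some mural and neural cells, was at 18.1 and 71.7 CPM in AD and 36.4 and 118 CPM in AD/KO. Mcam (CD146), an adhesion molecule of the vessel wall, was highest in AD replicate 2, at 21.3 and 67.3 CPM in AD and 36.2 and 40.9 CPM in AD/KO. Tpm1 (tropomyosin) was also higher in both AD/KO libraries, at 24.1 and 27.6 CPM in AD and 29.6 and 51.7 CPM in AD/KO, with an estimate of 0.65 (SE 0.37, adjusted p = 0.6796). Pln (phospholamban), a regulator of the calcium pump, was lower in both, at 14.7 and 8.73 CPM in AD and 6.83 and 4.88 CPM in AD/KO, with an estimate of −1.0002 (SE 0.47, adjusted p = 0.6796).

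The ligands and signalling partners of these receptors comprised 30 genes, of which 27 were tested. Of these 16 were higher and 11 lower, with a median of 0.55 and 0 past the threshold. Before adjustment 1 of the 27, Apln, had an edgeR p under 0.05, against 5.0% of all genes, and DESeq2 called 0. The replicate order held in only 9 of the 27, against 23.3% of all genes, and the reverse order in 7, against 25.4%. Vegfa, the ligand of Flt1 and Kdr, was at 18.5 and 67.9 CPM in AD and 53.4 and 154 CPM in AD/KO, an estimate of 1.26 (SE 0.81, adjusted p = 0.6796). Pdgfb, the ligand of Pdgfrb, ran the other way, at 291 and 194 CPM in AD and 265 and 120.4 CPM in AD/KO, with an estimate of −0.33 (SE 0.51, adjusted p = 0.803) that turned to 0.22 with scaling to the microglial markers. Apln, the apelin peptide hormone, was higher in both AD/KO libraries, at 8.06 and 17.2 CPM in AD and 26.1 and 60.02 CPM in AD/KO, an estimate of 1.77 (SE 0.60, adjusted p = 0.6796). Axin2, a Wnt target and feedback inhibitor, was so too, at 7.84 and 25.6 CPM in AD and 27.4 and 75.8 CPM in AD/KO, an estimate of 1.62 (SE 0.77, adjusted p = 0.6796). Without AD replicate 2 it was called (2.77, edgeR adjusted p = 0.0379). Tgfbr2, a TGF-beta receptor that microglia express, was at 711 and 434 CPM in AD and 563 and 166 CPM in AD/KO, and Notch1 at 181 and 156 CPM in AD and 182 and 150.3 CPM in AD/KO. AD/KO replicate 2 thus held the least RNA of Pdgfb and Tgfbr2 and the most of Vegfa, Apln and Axin2.

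Reads of some members may include those of other genes, since the use of strand in counting is not given in the sources used here. Exons of Ctsa, a lysosomal protease gene on the other strand, cover 19.3% of the exon length of Pltp, and the antisense gene Gm48529 covers 62.4% of that of Tagln. Gm42686, on the other strand, covers 10.1% of Abcb1a. Abcb1a also matches Abcb1b and Abcb4, its sister transporters, at up to 97.9% identity over 327 bases or less. Stretches of at most 145 bases of Abcc9 and 186 bases of Pecam1 match transcripts of 74 and 26 other genes at 95% identity or more.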

How the data were processed

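CD11b+ microglia of 10-month-old APP/PS1 mice were profiled by stranded bulk RNA-seq after ribosomal RNA depletion, per the labels' protocols, in 2 AD and 2 AD/KO libraries. The authors deposited a table of counts for each library, whole numbers of reads by gene symbol. FastQC, HISAT2, SAMtools, featureCounts (Subread) and DESeq2 1.30.0, and the build mm10, are named in the submitters' processing notes. Settings, strand use and annotation are not given in the sources used here. Broken lines (11 in every library's file) held no count, so that 4 genes (no member) were not analysed, and 0 columns were left without a sample.

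The comparison used edgeR 4.0.16 in R 4.3.3 on all 4 libraries without covariates: filterByExpr (minimum count 10, minimum total 15), TMM scaling, the quasi-likelihood F-test, and Benjamini-Hochberg adjustment across the 21439 genes that passed, with calls at 0.05. The standard error is the size of the log2 fold change divided by the square root of F. Differences between replicates over lists are of log2 counts plus 0.5, scaled for library size. Counting error is largest for members with at most 3 reads in a library (4 members). Near-identical transcripts were searched with blastn 2.17.0. The procedure was tested on simulated data in which libraries were drawn independently, so a shared deviation of same-numbered libraries was not covered. The changes set there were larger than any member's estimate from all libraries, and lay in genes above a level that most members did not reach. Whether differences of the members' size could be called was therefore not tested.

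All 30 members are named. Of each other vascular list the text names the 3 genes with the highest mean CPM and the 3 with the smallest adjusted p in the fit with the replicate number as a term, and any gene called without it (there were 0). Ociad1 is named as a check and Ly6c2 as a near copy. The members and lists were chosen with earlier results of these data known. Alternatives were DESeq2 1.42.0, other scalings and filters, edgeR's newer method, the replicate term and leaving out each library.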

Additional observations from a re-analysis of the deposited data

How the results depend on the processing

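Under alternatives, 346 member values were computed, of which 32 of 116 with a library left out and 14 of 230 under other settings changed sign. No member was called under any of them except the fit with the replicate number as a block. With a library left out, 0 to 524 genes were called (48 without AD replicate 1, 524 without AD replicate 2), and the medians ran from −0.34 to 1.39 (endothelial) and −0.24 to 1.32 (mural). The lower ends are without AD/KO replicate 2, where 20 members changed direction, and the cause was not tested. DESeq2's test called 90 genes and 0 members.

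The block of replicate numbers called 4333 genes (2878 higher, 1455 lower) and 2 members, Mfsd2a (log2 fold change 1.51, adjusted p = 0.0186) and Pdgfrb (1.06, adjusted p = 0.00910, edgeR in both). Over all alternatives their adjusted p ran up to 0.99997. Of the 37 other endothelial genes it called 7 higher and 5 lower (Spock2, Hey1, Cd34 and Fn1 among those named), of the 21 other mural genes 2 higher (Notch3 and Zic1) and 1 lower (Pln), and of the 27 ligands and partners 9 higher and 3 lower (Apln, Axin2 and Vegfa among those named), against 20.2% of all genes. The labels give no shared litter, batch or day behind a number. Libraries with 1 number deviated together from the means of their groups (correlation 0.736 across genes, 2 pairs). With 2 libraries a group, any difference that recurs in both groups gives a sizeable value, and its sign depends on how the libraries were numbered. The correlation therefore cannot show that same-numbered libraries were paired, and the pairing is not part of the design. Under the block the sign turned for Flt1 (−0.28), Abcb1a (−0.043) and Mcam (0.0062).

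Scaling to the 12 microglial markers, which were lowest in AD/KO replicate 2, shifted the median of all genes by 0.78 and moved the medians to 1.67 and 1.70. Relative to all genes they were 0.94 and 0.97 against 0.62 and 0.72 before. Signs turned for Pecam1 (0.32), Bsg (0.74), Kdr (0.42), Eng (0.30), Cspg4 (1.02), Acta2 (0.28), Tjp1 (0.69), Mcam (0.54), Pdgfb (0.22), Notch1 (0.75) and Ociad1 (0.038). DESeq2's size factors turned Bsg (0.032), Cspg4 (0.027), Tjp1 (0.0065) and Notch1 (0.024), and its test Bsg (0.032), Cspg4 (0.028), Tjp1 (0.0066) and Notch1 (0.024). Upper-quartile scaling turned Flt1 (−0.061), and no filter on low counts Flt1 (−0.0094). A filter at a mean of 1 CPM and edgeR's newer method turned none.

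Log2 fold changes that turned with a library left out ranged as follows: Pecam1 from −0.93 to 0.43, Flt1 from −1.50 to 0.82, Ly6c1 from −2.13 to 2.43, Itm2a from −1.32 to 2.30, Abcb1a from −1.45 to 1.12, Egfl7 from −0.27 to 0.64, Eng from −1.08 to 0.48, Abcc9 from −0.57 to 0.63, Tjp1 from −0.25 to 0.21, Notch1 from −0.11 to 0.12, Bsg from −0.085 to 0.12, Erg from −2.18 to 0.75, Cspg4 from −1.07 to 0.91, Mcam from −0.82 to 0.92, Cldn5 from −0.79 to 2.47, Slco1a4 from −0.72 to 1.93, Ptprb from −0.81 to 1.66, Pltp from −0.32 to 1.36, Tek from −0.36 to 1.66, Tie1 from −0.082 to 2.27, Esam from −0.24 to 2.10, Emcn from −0.64 to 3.49, Rgs5 from −0.31 to 1.91, Vtn from −0.063 to 1.32, Myl9 from −0.24 to 1.90, Zic1 from −0.29 to 2.15 and Pdgfb from −0.96 to 0.14.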

Other observations

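Markers of perivascular fibroblasts, which share the space around larger vessels with smooth muscle cells, mostly followed the replicate order too. The 9 markers summed to 56.4 and 139 CPM in AD and 101 and 209 CPM in AD/KO. Pdgfra is among them and also stands in the oligodendrocyte lineage list, and the part of each cell type was not tested. Of the 8 tested, 7 had a higher estimate in AD/KO and 6 had both replicate 2 libraries above both replicate 1 libraries (23.3% of all genes did), and edgeR called 0 (0 also before adjustment, and 0 by DESeq2). Border macrophage markers, 6 in number, summed to 128 and 97.1 CPM in AD and 67.6 and 58.8 CPM in AD/KO, with 4 of 6 lower in both AD/KO libraries without overlap, against 21.7% of all genes. Choroid plexus and ependymal markers, 7 in number, were low throughout, at 18.8 and 20.96 CPM in AD and 16.6 and 39.5 CPM in AD/KO.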
